A study of Mus musculus with 12 samples.

Results

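*Fkbp5* and *Tsc22d3* are textbook target genes of corticosteroid receptors, and their levels were examined in cultured skeletal muscle fibroblasts together with their paralogs *Fkbp4* and *Tsc22d1* and with 3 further targets, *Zbtb16*, *Cebpd* and *Fam107a*. These 7 genes were picked by name from the 28995 genes listed in any of the 3 deposited tables, and all 7 were listed in each table. They were picked with their response to aldosterone known, so their values with aldosterone are given as a description, without a test. The cells came from hindlimb muscles of 2 wild-type C57BL/10 mice aged 3 days and were enriched for fibroblasts by adherence. Plates were treated for 48 hours with 1 µM aldosterone, which activates the mineralocorticoid receptor (MR), with 1 µM spironolactone, an antagonist of this receptor, or with the solvent DMSO as vehicle. All 3 groups had the same genotype and age, carried DMSO, and were kept before and during treatment in medium whose serum had been stripped of steroids with charcoal. Each group had 4 libraries of poly(A) RNA, from 2 replicate plates of each of 2 mice, and the labels name them by a sample number and a biological replicate number without saying which of these is the mouse. Cells were pooled within a mouse and plated again before treatment, so p-values measure the spread between plates of 2 mice.

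Corticosteroid receptors wait mostly in the cytoplasm in a complex with the chaperone HSP90 and enter the nucleus when hormone binds. There they turn on genes through DNA elements that the mineralocorticoid and glucocorticoid receptors (GR) can both use. FKBP51, the protein of *Fkbp5*, sits on HSP90 in this complex and lowers the affinity of the receptor for hormone, and its related protein FKBP52, from *Fkbp4*, takes its place when hormone binds. Because the receptor switches on *Fkbp5*, this gene forms a short feedback loop and is widely read as a marker of corticosteroid receptor activity. *Tsc22d3* encodes GILZ, a leucine zipper protein through which corticosteroids dampen inflammatory transcription factors.

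The stretches upstream of the start sites show the sequence in front of genes that differ widely in response. RefSeq promoters (GRCm38.p6) were found for 5 of the 7 genes, 13 start sites in all, and there was no entry for *Zbtb16* and *Cebpd*. Each stretch below holds the 250 bases before a start site, on the strand of the gene, with capitals marking AGAACA or its reverse complement TGTTCT, the half-site of the response element shared by these receptors. *Fkbp5* and *Fkbp4* are shown as paralogs with opposite direction, *Tsc22d3* and *Fam107a* at a start site that holds a half-site.

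Fkbp5, chr17:28486150-28486399, minus strand: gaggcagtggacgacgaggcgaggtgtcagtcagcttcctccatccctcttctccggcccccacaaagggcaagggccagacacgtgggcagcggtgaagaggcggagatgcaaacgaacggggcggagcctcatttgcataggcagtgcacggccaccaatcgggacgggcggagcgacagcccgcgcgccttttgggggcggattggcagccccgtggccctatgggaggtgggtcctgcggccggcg
Fkbp4, chr6:128438657-128438906, minus strand: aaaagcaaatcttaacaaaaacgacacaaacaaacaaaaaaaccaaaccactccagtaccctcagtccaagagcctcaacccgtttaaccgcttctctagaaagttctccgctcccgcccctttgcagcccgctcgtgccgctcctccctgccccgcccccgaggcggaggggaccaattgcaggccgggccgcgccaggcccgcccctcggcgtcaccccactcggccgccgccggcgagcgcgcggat
Tsc22d3, chrX:140600523-140600772, minus strand: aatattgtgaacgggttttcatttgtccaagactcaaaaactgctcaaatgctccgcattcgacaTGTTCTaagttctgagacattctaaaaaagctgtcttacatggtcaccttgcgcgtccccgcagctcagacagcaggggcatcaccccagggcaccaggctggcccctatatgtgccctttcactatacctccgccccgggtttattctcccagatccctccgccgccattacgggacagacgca
Fam107a, chr14:8309778-8310027, minus strand: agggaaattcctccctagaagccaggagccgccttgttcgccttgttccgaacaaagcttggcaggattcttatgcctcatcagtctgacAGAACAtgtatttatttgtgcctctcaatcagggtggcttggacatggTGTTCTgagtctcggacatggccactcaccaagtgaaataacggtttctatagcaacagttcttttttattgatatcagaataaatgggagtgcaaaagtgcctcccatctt

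With both strands searched, the half-site was present in 4 of the 13 stretches and in 16.1% of the 32851 promoters of the same length. It lay 185 bases before 1 of 3 start sites of *Tsc22d3*, 137 bases before 1 of 5 start sites of *Tsc22d1*, and at 160 and 112 bases before a start site of *Fam107a*, whose neighboring start site 2 bases away covers the same pair. The full palindrome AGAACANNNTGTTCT was in 0 of the 13 stretches and in 3 of the 32851 promoters (0.009%). At that share 0 in 13 stretches could hardly be otherwise and says nothing about these genes. Sequence outside the stretches was not searched. GC content was 68.0% in front of *Fkbp5* and 45.2% in front of *Fam107a*, with a median of 52.4% over all promoters.

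Reads counted on genes were between 19136923 and 30219185 per library. Levels are given as normalized reads, the counted reads divided by a size factor of the library, set on 1 scale for all 12 libraries. Fibroblast markers were all present, with 9 of 9 above a mean of 10 normalized reads, and they summed to between 1175529 and 1271382 in vehicle libraries, 1105563 and 1219586 in spironolactone libraries and 1017475 and 1137766 in aldosterone libraries. The aldosterone libraries were apart from both other groups in the myogenic and endothelial markers, and overlapped at least 1 of them in the fibroblast, adipocyte, Schwann cell and macrophage markers. Within the fibroblast list single genes went both ways, as mean levels with vehicle and aldosterone were 3186 and 5983 normalized reads for *Pdgfra*, 137509 and 192301 for *Vim*, and 577212 and 458536 for *Col1a1*. The myogenic markers (2 of 6 above 10) summed to 521 to 763 with vehicle, 529 to 844 with spironolactone and 206 to 445 with aldosterone, with *Pax7* at a mean of 0 in both treated groups. The endothelial markers (2 of 3) summed to 33.7 to 89.8, 58.2 to 74.3 and 117 to 259 in the same order, most of it *Kdr*, at means of 45.7, 49.5 and 170, whereas *Pecam1* was at 6.64, 4.55 and 2.89. The adipocyte markers (2 of 3) summed to 29.6 to 97.5, 31.6 to 136 and 116 to 225, and the Schwann cell markers (3 of 4) to 243 to 327, 286 to 339 and 318 to 458. The macrophage markers (3 of 5) summed to 203 to 296, 189 to 269 and 208 to 248, with *Adgre1* at 0 in vehicle and spironolactone libraries and *Ptprc* at 0 in aldosterone libraries. Their part in the values below was not tested, and in bulk RNA a change in cell number and a change in RNA per cell cannot be told apart.

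The level of *Fkbp5* was low without aldosterone and high in every aldosterone library. *Fkbp5* (ENSMUSG00000024222, chr17:28618068-28736501, minus strand, protein-coding) had 371, 342, 344 and 279 normalized reads in the vehicle libraries and 479, 430, 366 and 330 in the spironolactone libraries. With aldosterone the values were 7118, 6260, 6214 and 6035. The aldosterone libraries lay far above all others, while the other groups overlapped. The means were 334 ± 39.0 (SD, n = 4) with vehicle, 401 ± 66.2 with spironolactone and 6407 ± 484 with aldosterone, a ratio of 19.2 between aldosterone and vehicle and 16.0 between aldosterone and spironolactone. On the log2 scale the difference was 4.26 (SE 0.08) from vehicle and 4.01 (SE 0.09) from spironolactone. Within sample number 1 the ratio to vehicle was 18.8, and within sample number 2 it was 19.6. The span listed for *Fkbp5* overlaps 3 genes that are not listed as protein-coding, none above 8.38 normalized reads in any library. On the same strand, *Gm49839* and *Gm49838* had means of 0 and 0.272 with vehicle and of 2.10 and 5.15 with aldosterone. On the other strand, *7SK* had 0.309 and 0.327. Positions are given as the deposited tables list them, which the submitters' processing notes place on mm39, whereas the methods of the study name mm9.

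*Fkbp4* (chr6:128406698-128415640, minus strand) was the only 1 of the 7 with lower values under aldosterone. Its vehicle libraries had 2101, 2009, 2086 and 2004 normalized reads, its spironolactone libraries 2105, 2261, 2146 and 2188, and its aldosterone libraries 1636, 1778, 1773 and 1780. No aldosterone library reached the lowest vehicle library, although the distance was small. The means were 2050 ± 50.4, 2175 ± 66.6 and 1742 ± 70.6 (SD, n = 4), so the aldosterone mean was 1.18-fold lower than vehicle and 1.25-fold lower than spironolactone. On the log2 scale the differences were -0.24 (SE 0.05) and -0.32 (SE 0.05).

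The balance between the reads of these 2 immunophilin genes differed accordingly. Within a library, the ratio of *Fkbp5* to *Fkbp4* per kilobase of gene length does not depend on how libraries are scaled. It was 0.0522, 0.0502, 0.0487 and 0.0411 in the vehicle libraries and 0.0671, 0.0561, 0.0503 and 0.0446 in the spironolactone libraries. It was 1.28, 1.04, 1.03 and 1.00 in the aldosterone libraries. By this measure *Fkbp5* went from a small fraction of the level of *Fkbp4* to a level at or above it. Where the ratio lies relative to 1 rests on the listed gene lengths, 9468 bases for *Fkbp5* and 2795 for *Fkbp4*. Whether these are the lengths of the transcripts in these cells was not tested. Without division by length, the aldosterone means were 6407 and 1742 normalized reads and the vehicle means 334 and 2050. Between spironolactone and vehicle the ratio differed by 0.00645 (0.0545 ± 0.00964 against 0.0481 ± 0.00483, SD, n = 4), with p = 0.314 in a two-sided exact permutation test.

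*Tsc22d3* (ENSMUSG00000031431, chrX:139440277-139501408, minus strand) had 2018, 1939, 2020 and 1945 normalized reads with vehicle and 2106, 2117, 2146 and 2100 with spironolactone. With aldosterone it had 12624, 12168, 13143 and 13254. The 3 groups did not overlap, and the spread within each was small, with means of 1981 ± 44.6, 2117 ± 20.4 and 12797 ± 501 (SD, n = 4). The aldosterone mean was 6.46 times that of vehicle and 6.04 times that of spironolactone, differences of 2.69 (SE 0.05) and 2.59 (SE 0.05) on the log2 scale. Among 15276 genes ranked by normalized reads per kilobase, *Tsc22d3* stood at rank 2416 with vehicle and at rank 330 with aldosterone, and *Fkbp5* at ranks 10906 and 1667.

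*Tsc22d1* (chr14:76652401-76745205, plus strand), first found as a gene induced by TGF-β, had 6621, 6416, 6751 and 6481 normalized reads with vehicle and 5952, 6463, 6859 and 6661 with spironolactone. Its aldosterone libraries had 8428, 8528, 10110 and 10069. They formed 2 pairs, the higher being sample number 2, and all lay above the other groups, which overlapped. The aldosterone mean of 9284 ± 931 (SD, n = 4) was 1.41 times the vehicle mean of 6567 ± 150 and 1.43 times the spironolactone mean of 6484 ± 390. The ratio of *Tsc22d3* to *Tsc22d1* per kilobase was 0.632, 0.626, 0.620 and 0.622 with vehicle, 0.733, 0.679, 0.648 and 0.653 with spironolactone, and 3.10, 2.96, 2.69 and 2.73 with aldosterone. All spironolactone ratios were above all vehicle ratios, with means of 0.678 ± 0.039 and 0.625 ± 0.00516 (SD, n = 4). A two-sided exact permutation test gave p = 0.0286, which is the smallest value 4 libraries against 4 can reach. Without the first spironolactone library this difference of 0.0535 was 0.0352, and the test of 3 against 4 libraries could not pass.

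**Figure D1:**
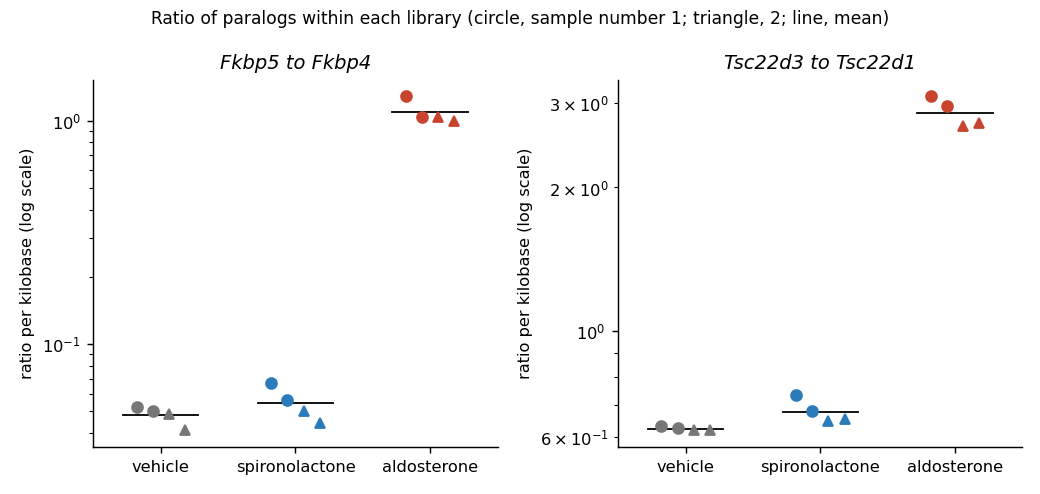
Ratio of normalized reads per kilobase of *Fkbp5* to *Fkbp4* (left) and of *Tsc22d3* to *Tsc22d1* (right) in each library, on a log axis, with circles for sample number 1, triangles for sample number 2 and a line at the mean of 4 libraries. The aldosterone libraries lie at 1.00 to 1.28 on the left and at 2.69 to 3.10 on the right, above all vehicle and spironolactone libraries.

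*Zbtb16* (chr9:48565597-48747522, minus strand) encodes PLZF, a transcription factor with a BTB domain and zinc fingers that mostly represses its targets. It was barely detected without aldosterone, with 12, 3, 4 and 10 reads in the vehicle libraries and 4, 14, 3 and 5 in the spironolactone libraries. With aldosterone there were 678, 853, 761 and 818 reads. In normalized reads this was 7.24 ± 3.89, 5.90 ± 3.60 and 769 ± 110 (SD, n = 4), ratios of 106 to vehicle and 130 to spironolactone. The log2 differences were 6.67 (SE 0.28) and 6.92 (SE 0.26) after 1 was added to each value, and their size rests on the few reads without aldosterone.

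*Cebpd* (chr16:15705150-15708895, plus strand) encodes C/EBPδ, a leucine zipper factor of the acute phase response and of early fat cell differentiation. The vehicle libraries had 1050, 1056, 1299 and 1308 normalized reads, the spironolactone libraries 1049, 1542, 1484 and 1569, and the aldosterone libraries 2615, 3209, 3456 and 3694. The aldosterone libraries were above all others, and sample number 2 was higher than sample number 1 with vehicle and with aldosterone. The means were 1179 ± 145, 1411 ± 244 and 3244 ± 464 (SD, n = 4), with ratios of 2.75 to vehicle and 2.30 to spironolactone. On the opposite strand the span of *Spidr* overlaps *Cebpd*. *Spidr* had mean levels of 445, 421 and 480 normalized reads with vehicle, spironolactone and aldosterone, and it is not given in the sources used here whether the counting used strand.

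*Fam107a* (chr14:14151750-14173499, listed on the plus strand, against minus in the RefSeq build above) encodes DRR1, an actin-binding protein known from stress-exposed brain. It had 0, 0, 0 and 2 reads with vehicle, 0, 5, 0 and 0 with spironolactone, and 50, 78, 78 and 127 with aldosterone. The gene was therefore at or near 0 in 8 libraries and present in 4. Scaled by library, the 333 reads with aldosterone were 158 times the 2 reads with vehicle (95% exact interval 43.5 to 1314) and 66.8 times the 5 reads with spironolactone (28.4 to 207), intervals that cover counting error only. Its aldosterone level of 78.7 ± 15.3 normalized reads (SD, n = 4) was the lowest of the 7.

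**Figure D2:**
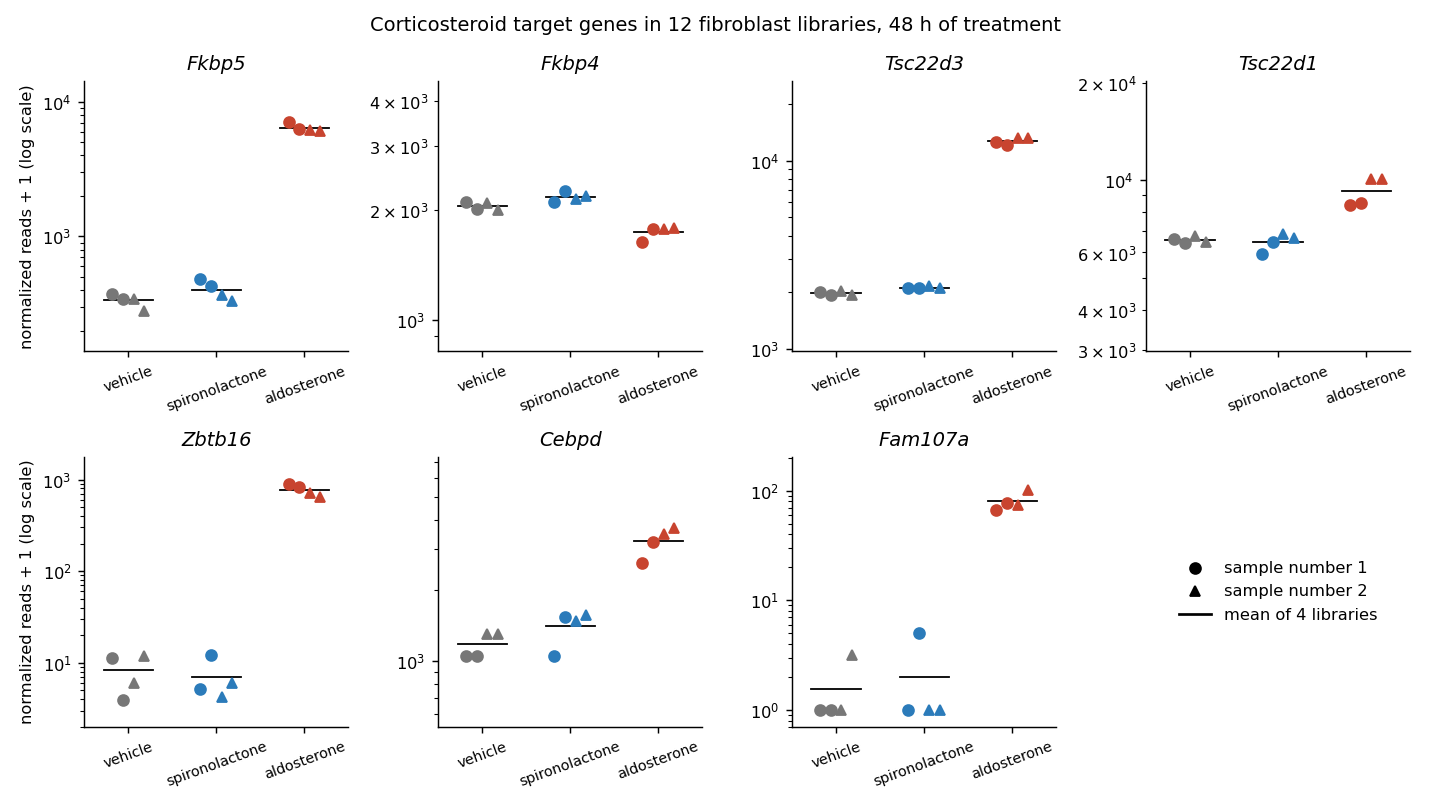
Normalized reads plus 1 of the 7 genes in each of the 12 libraries, on log axes that differ between panels, with circles for sample number 1, triangles for sample number 2 and a line at the mean of 4 libraries. In 6 genes the aldosterone libraries lie above all others, closest to them in *Tsc22d1*, at 1.41 times vehicle, and in *Fkbp4* they lie below.

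In sum, no aldosterone library overlapped a vehicle library in any of the 7 genes, with 6 genes above and 1 below, and the same held against spironolactone. Over all genes in the tables, the aldosterone libraries were all above vehicle in 7.6% and all below in 6.85%, and all above spironolactone in 6.77% and all below in 6.21%. At an adjusted p of 0.05 or less, limma called 5.68% of genes higher and 4.74% lower than vehicle. The shares were 1.4% and 0.666% when a log2 fold change of 1 or more was also asked. All these shares count genes with few reads too, since only 15276 of the 28995 genes averaged at least 10 normalized reads. With only genes at a mean of at least 10 kept, limma called 1620 higher and 1413 lower than vehicle. The 7 genes were selected on this contrast, so nothing is read from their count.

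The order of the genes per kilobase rests on the listed gene lengths. *Fkbp4* and *Tsc22d1* were the most abundant of the 7 with vehicle, at 733 ± 18.0 and 730 ± 16.7 normalized reads per kilobase (SD, n = 4). Their libraries overlapped. *Tsc22d3* followed at 456 ± 10.3, *Cebpd* at 315 ± 38.7, *Fkbp5* at 35.3 ± 4.12, *Zbtb16* at 1.37 ± 0.736 and *Fam107a* at 0.14 ± 0.281. With spironolactone the order was the same, with *Fkbp4* at 778 ± 23.8 and *Fkbp5* at 42.4 ± 6.99. With aldosterone *Tsc22d3* led at 2948 ± 115, ahead of *Tsc22d1* at 1032 ± 104 and *Cebpd* at 866 ± 124, whose libraries overlapped. *Fkbp5*, at 677 ± 51.1, came just before *Fkbp4*, at 623 ± 25.3, and *Zbtb16*, at 146 ± 20.7, and *Fam107a*, at 20.3 ± 3.97, came last.

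**Figure D3:**
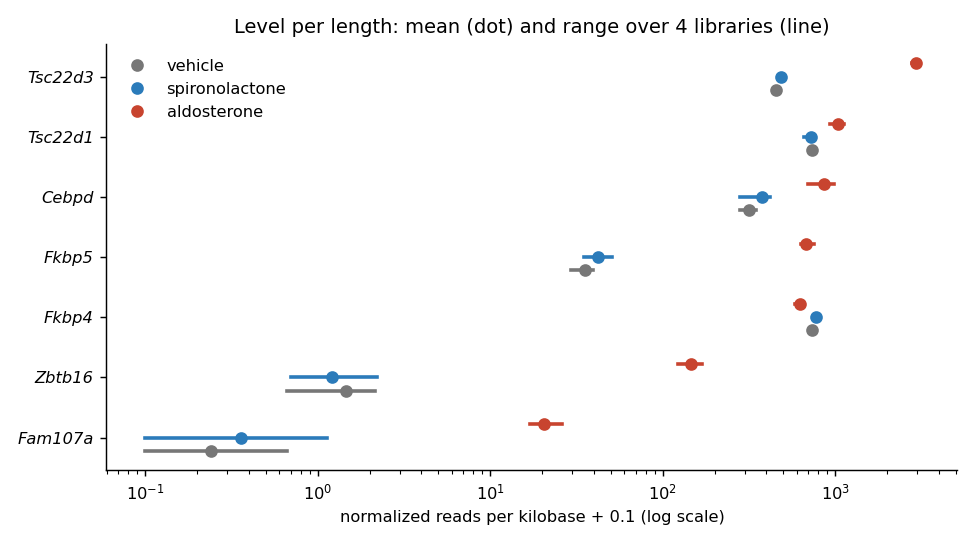
Normalized reads per kilobase plus 0.1 of the 7 genes, on a log axis, as the mean (dot) and the range (line) of the 4 libraries of each treatment. With aldosterone *Tsc22d3* leads at 2948, and *Fkbp5*, at 677, reaches the level of *Fkbp4* when divided by the listed gene lengths. *Zbtb16* and *Fam107a* remain the lowest, at 146 and 20.3.

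Spironolactone alone was not used to pick the genes. Its difference from vehicle is 1 value per gene, in which residual steroid in the medium and an effect of the antagonist itself could offset each other. The difference cannot separate these causes, and neither was tested. Residual steroid acting through GR was not tested either. Limma called 0 of the 7 genes and 0% of all 27598 genes between spironolactone and vehicle (adjusted p of 0.05 or less), with 1251 genes at an unadjusted p under 0.05, and DESeq2 called 13 genes and edgeR 0 on the recovered reads. With a replicate block on the sample number, limma called 97 genes (0.351%), and again 0 of the 7. *Fkbp5* was 1.20-fold higher with spironolactone on the log2 scale of the fit (95% interval 1.01 to 1.41, adjusted p = 0.934, or 0.241 with the block, limma). *Cebpd* was 1.19-fold higher (1.01 to 1.40, adjusted p = 0.934, or 0.108 with the block, limma). Without the first spironolactone library the log2 difference of *Cebpd* was 0.39 in place of 0.25 (adjusted p = 0.661, limma) and that of *Fkbp5* 0.17 in place of 0.26 (adjusted p = 0.930), which leaving out the fourth vehicle library also gave. In both genes the libraries of the groups overlapped (exact permutation test, which leaves out the sample number, p = 0.2 for each). Within sample number 1 the spironolactone libraries of *Fkbp5* were all above vehicle (1.27-fold), and within number 2 they overlapped it (1.12-fold). Those of *Cebpd* overlapped vehicle within number 1 (1.23-fold) and were all above it within number 2 (1.17-fold).

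For *Fkbp4* and *Tsc22d3* every spironolactone library was above every vehicle library, a pattern found in 1.36% of all genes, those with few reads included. The differences were small, 1.06-fold for *Fkbp4* (0.985 to 1.15) and 1.07-fold for *Tsc22d3* (0.995 to 1.15), with a two-sided exact permutation p of 0.0286 for each, not adjusted over genes, and an adjusted p of 0.934 from limma across all genes. *Tsc22d1* was at 0.987 of vehicle, with an interval of 0.912 to 1.07 that was among the narrowest of the 7. For *Zbtb16* the interval ran from 0.397 to 1.81 and for *Fam107a* from 0.472 to 2.66. At these few reads a difference of that size was not detectable. Both intervals come from the fit on log2(value + 1), which understates the change of low genes. Scaled by library, the 5 reads of *Fam107a* with spironolactone were 2.37 times the 2 reads with vehicle. The exact interval of this ratio, for counting error only, was 0.388 to 24.9, so 2.66 is no upper limit for this gene.

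**Figure D4:**
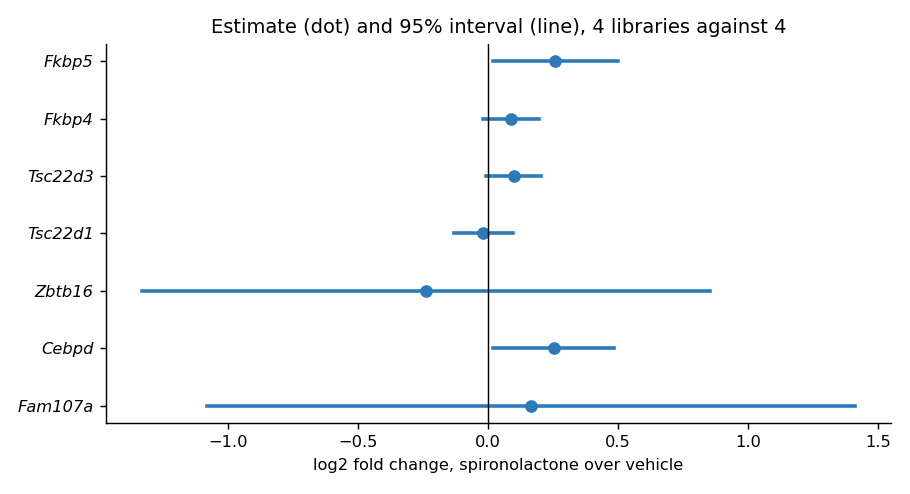
Log2 fold change between spironolactone and vehicle for the 7 genes, as the limma estimate (dot) and its 95% interval (line), with 4 libraries per group. The intervals of *Fkbp5* and *Cebpd* lie just above 0, with adjusted p = 0.934 for both by limma, and those of *Zbtb16* and *Fam107a* are the widest.

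Part of the spread within groups followed the sample number of the labels. In a limma fit of all 12 libraries with treatment as a term, 3 of the 7 genes differed between sample numbers. So did 10.9% of all 28995 genes, those with few reads included. With only the 15276 genes averaging at least 10 normalized reads kept, 3542 were called, again with 3 of the 7. *Cebpd* was higher in sample number 2, by 0.29 on the log2 scale (SE 0.06, adjusted p = 0.00127), with 1304 against 1053 normalized reads in vehicle libraries and 3575 against 2912 in aldosterone libraries. *Fkbp5* was lower in sample number 2, with a difference of -0.24 (SE 0.06, adjusted p = 0.00436, limma), and the means were 312 against 357 with vehicle, 348 against 454 with spironolactone and 6125 against 6689 with aldosterone. *Tsc22d1* was higher by 0.13 (SE 0.04, adjusted p = 0.0130, limma), but its adjusted p was 0.0548 without the third aldosterone library. *Tsc22d3*, with 0.03 (SE 0.03, adjusted p = 0.636, limma), *Fkbp4*, with 0.01 (SE 0.04, adjusted p = 0.883), *Zbtb16*, with -0.22 (SE 0.27, adjusted p = 0.713), and *Fam107a*, with -0.02 (SE 0.47, adjusted p = 0.994), were not called. The difference may be between mice or between platings, which cannot be told apart from the labels.

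The size of the aldosterone response was then compared between sample numbers in a fit with an interaction term, which left 4 residual degrees of freedom. Limma called 0 of the 7 genes and 4 of 27319 genes (0.0146%), with 1356 at an unadjusted p under 0.05, and DESeq2 called 15 and edgeR 12 on the recovered reads. *Tsc22d1* came closest, with a response 0.23 larger in sample number 2 (95% interval 0.09 to 0.38, adjusted p = 0.895, limma). Its ratio to vehicle was 1.30 in sample number 1 and 1.53 in sample number 2. For the other 6 genes the adjusted p was between 0.895 and 0.999.

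Relatives of these genes were followed by lists put together from families and pathways, with the earlier results known. Of 88 such genes 86 were in the table of aldosterone and vehicle. Of these 26 rose, 7 fell and 53 did not pass (31 and 9 with the replicate block), beside 5.68% and 4.74% of all genes. Those shares count genes with few reads too, which the lists mostly leave out. With only genes at a mean of at least 10 kept, limma called 1620 genes higher and 1413 lower. In that fit 27 list genes rose and 7 fell. Among FKBP immunophilins and relatives 0 of 15 rose and 2 fell. *Fkbp14*, a prolyl isomerase of the endoplasmic reticulum, differed by -0.27 (SE 0.06, adjusted p = 0.00741, limma) and *Fkbp10*, which folds collagen, by -0.19 (SE 0.06, adjusted p = 0.0457). With the replicate block 2 rose and 2 fell, *Fkbp2* and *Fkbp8* being the additional 2, at 0.26 and 0.12. The median log2 fold change of this list was 0.04, against -0.006 over all genes, and all its genes but *Aipl1*, which is low at 11.1 normalized reads with aldosterone, lay between -0.27 and 0.26.

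In the HSP90 chaperone cycle 2 of 16 genes rose and 0 fell (median 0.04), or 3 and 0 with the replicate block, which added *St13* (adjusted p = 0.0318, or 0.166 without the block, limma). The 2 were *Hspa8*, which encodes the constitutive HSC70 and rose by 0.44 (SE 0.08, adjusted p = 0.000897, limma), and *Ppp5c*, a phosphatase bound to HSP90, which rose by 0.30 (SE 0.05, adjusted p = 0.000868). The chaperone genes themselves had differences of 0.01 (*Hsp90ab1*, adjusted p = 0.951) and 0.10 (*Hsp90aa1*, adjusted p = 0.502) and did not pass. In the TSC22 family *Tsc22d2* fell by 0.26 on the log2 scale (adjusted p = 0.0115, limma), while *Tsc22d4*, at 0.20, passed only with the replicate block (adjusted p = 0.00219, or 0.0820 without it). In the C/EBP family 1 of 4 genes rose and 1 fell, *Cebpb* by 0.27 and *Ddit3* by -0.30, and *Fam107b*, the relative of *Fam107a*, fell by 0.33. Among BTB zinc finger factors 1 of 17 rose, *Hic1* by 0.28, and 1 fell, *Zbtb18* by -0.45, or 2 and 2 with the replicate block, which added *Zbtb20* at 0.18 and *Zbtb46* at -0.42. In these family and chaperone lists none of the genes called had a log2 fold change of 1 or more. *Aipl1*, at 1.38, did not pass (adjusted p = 0.219, limma).

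The list of other textbook targets of corticosteroid receptors had 24 genes with values. Of these 20 rose, 13 of them with a log2 fold change of at least 1, and 0 fell, with a median of 1.27. They make up 20 of the 26 list genes that rose. The list was drawn up with earlier results of these data known, so nothing is read from its count. *Hif3a*, a regulator of the hypoxia response, went from 3.32 to 555 normalized reads (7.44 on the log2 scale), and *Lcn2*, which encodes lipocalin 2, from 76.9 to 819 (3.39). *Mt2*, a metallothionein whose reads may be shared with its near copy *Mt1*, went from 26.3 to 258 (3.26), and *Glul*, which encodes glutamine synthetase, from 652 to 5694 (3.13), and the highest adjusted p of these 4 was 1.29e-08 (limma). The 4 that did not pass were *Angptl4* (0.29), *Foxo1* (-0.06), *Scnn1a* (0.05) and *Pck1* (-0.02).

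The comparison with spironolactone shares the aldosterone libraries. In it 24 of 85 list genes were higher and 5 lower, beside 4.93% and 3.96% of all genes, those with few reads included. With only genes at a mean of at least 10 kept, 25 list genes were higher and 6 lower, beside 1400 and 1171 of all. With the replicate block 29 list genes were higher and 9 lower, beside 2095 and 1879 of all 27631 genes. Of the textbook targets 19 of 23 were higher and 0 lower, or 20 and 0 with the block. The block added *Ddit4* (adjusted p = 0.00856, or 0.0755 without, limma). The 4 genes lower only with the block were *Fkbp10*, *Fkbp11*, *Fkbp14* and *Ptges3*, at -0.17, -0.28, -0.19 and -0.18. Besides *Ddit4*, the genes higher only with the block were *Tsc22d4*, *Cebpa*, *Cebpb* and *Zbtb20*, at 0.17, 0.34, 0.23 and 0.25. Between spironolactone and vehicle 0 of 85 passed by limma, and with the replicate block *Mt1* was higher (adjusted p = 9.81e-05, or 0.135 without the block) and *Cebpa* lower (adjusted p = 0.0456, or 0.934 without).

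**Figure D5:**
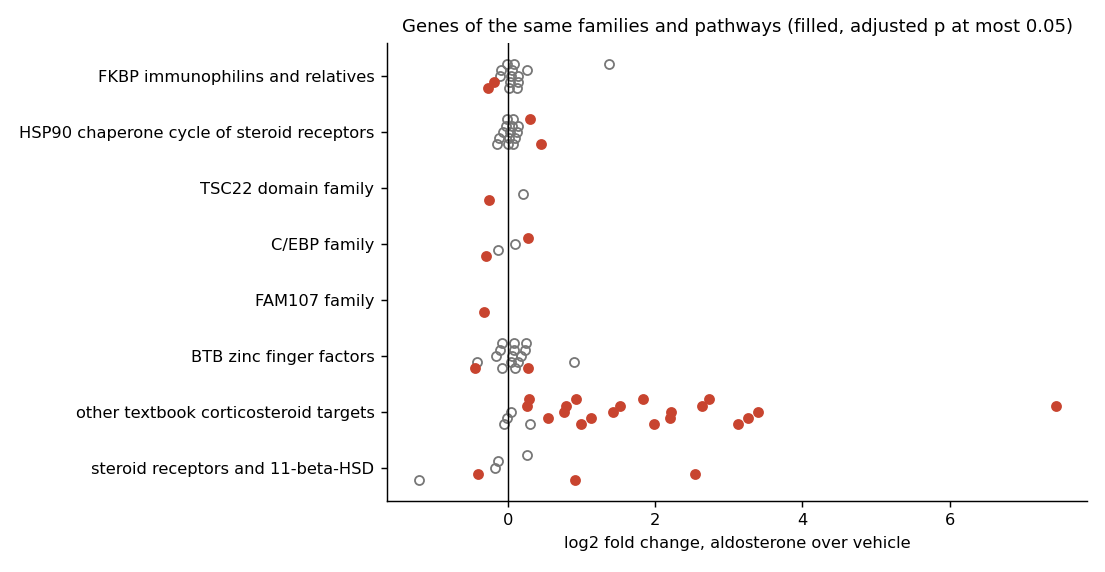
Log2 fold change between aldosterone and vehicle of 86 genes in 8 lists, with filled circles for an adjusted p of at most 0.05 by limma and open circles for the rest. Of the textbook corticosteroid targets 20 of 24 are filled and to the right of 0, up to 7.44 for *Hif3a*, and the filled genes of the 6 family and chaperone lists lie between -0.45 and 0.44.

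The receptors that aldosterone can reach were both detected. *Nr3c1*, which encodes GR, was at 379 normalized reads per kilobase with vehicle and *Nr3c2*, which encodes MR, at 5.85. With aldosterone *Nr3c1* fell by 0.41 on the log2 scale (SE 0.05, adjusted p = 6.48e-05, limma), from 2914 to 2196 normalized reads. *Nr3c2* had 14.7 ± 5.89 normalized reads with aldosterone and 37.9 ± 21.0 with vehicle (SD, n = 4), a difference of -1.21 (adjusted p = 0.0853 without and 0.00794 with the replicate block, limma). Of the enzymes that convert glucocorticoids, *Hsd11b2* rose from 6.18 to 31.6 normalized reads (adjusted p = 0.00518) and *Hsd11b1* from 33.0 to 60.4 (adjusted p = 0.0326, limma).

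The genes whose pattern was most like that of *Fkbp5* were sought among 15275 genes by Pearson's r of log2 normalized reads over the 12 libraries, which share 3 treatments, and r is given as a description. *Tsc22d3* came first of all genes (r = 0.9963), followed by *Ndrg2* (0.9951), *Dpep1* (0.995), *Scpep1* (0.9947) and *Fth1* (0.9937). For *Tsc22d3* the first 5 were *Ndrg2* (0.9986), *Serpina3n* (0.9981), *Glul* (0.998), *Gsn* (0.9976) and *Dpep1* (0.9976), and *Fkbp5* was in place 7. Genes with very different size of response were alike on this measure, since *Scpep1* had 10505 normalized reads with vehicle and 14880 with aldosterone, and *Dpep1* 78.4 and 2539. Among the 7 genes, r with *Fkbp5* was 0.9813 for *Zbtb16*, 0.9597 for *Fam107a*, 0.9292 for *Cebpd*, 0.9198 for *Tsc22d1* and -0.9108 for *Fkbp4*.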

How the data were processed

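Poly(A) RNA of 12 libraries, 4 per treatment, was sequenced by the authors. Per the submitters' processing notes, reads were aligned with HISAT2 2.0.5 and counted with featureCounts 1.5.0-p3 on mm39. The authors deposited 1 table per pair of treatments, holding signal values (gene counts after division by a library's size factor), each table normalized on its own. The deposited log2 fold changes, p-values and adjusted p-values of the authors' DESeq2 comparison and their group means were not used. The depth was 19136923 to 30219185 reads per library, so levels of single genes with few reads are imprecise.

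Whole reads were recovered in 22 of 24 columns (100% of values within 0.01 of a whole number). In the other 2 the reads of the same library came from its other table, and where both tables gave reads 0 genes differed. Each library is in 2 tables, and 575 genes listed in only 1 of the 3 tables were set to 0 reads in the libraries it does not hold. Reads of all libraries were scaled together by median-of-ratios size factors for levels, and divided by gene length where genes were compared.

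Each pair of treatments was tested across all genes of its table with limma 3.58.1 (R 4.3.3) on log2(value + 1) with a trend, which understates the change of low genes. The threshold was an adjusted p (Benjamini-Hochberg) of 0.05. Single values were compared by two-sided exact permutation tests (scipy 1.17.1). The sample number (12 libraries, treatment as a term) and its interaction with treatment (8 libraries) were fitted likewise. Alternatives were a pseudocount of 0.5, a mean of at least 10, DESeq2 1.42.0, edgeR 4.0.16, TMM scaling, replicate blocks and leaving out each library, where genes with at least 2 reads in the remaining libraries were kept. The scripts were tested on simulated data.

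Deviations from the group means were correlated between same-numbered libraries across treatments (sample number, 24 pairs, mean r = 0.219, from 0.134 to 0.283). The sample number thus pairs the libraries, while the main fits between treatments hold no block. Blocked values are given where they change a call or a count of calls. For the biological replicate number the mean r was -0.00547.

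The 7 genes and the lists were chosen with earlier results of these data known. Of each list the text names up to 4 genes with the largest change among called genes averaging 10 normalized counts or more, and others where a count of calls turned on them or where they did not pass.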

Additional observations from a re-analysis of the deposited data

Results flagged for a closer look

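In *Fkbp4* the first aldosterone library stood apart, at 1636 normalized reads beside 1773 to 1780 in the others, a gap to the nearest of 0.956 of the range of the group. In *Cebpd* it was the first spironolactone library, at 1049 beside 1484 to 1569 (0.836). These came from 21 groups of 4 libraries, 7 genes in 3 treatments, and chance gives such a gap in about 1 of 20 groups. In *Fam107a* 1 vehicle library with 2 reads and 1 spironolactone library with 5 reads stood beside 3 libraries at 0, where the ratio is 1.0 whatever the size of the fourth value and says nothing further.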

How the results depend on the processing

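In *Fkbp5*, *Fkbp4*, *Tsc22d3*, *Tsc22d1*, *Zbtb16* and *Cebpd* the log2 differences with aldosterone stayed within the spread between replicates under all alternatives, and *Fam107a*, at 5.87 from vehicle, had 7.27 with DESeq2 and 6.96 with edgeR. None of the 7 was called between spironolactone and vehicle, or for the interaction, under any alternative. With the replicate block on the sample number, limma called 4563 genes for aldosterone against vehicle (2847 without), 3974 against spironolactone (2454 without) and 97 for spironolactone against vehicle (0 without), where DESeq2 called 13 and leaving out a library gave 0 to 3. For the interaction, 4 genes became 2 with a pseudocount of 0.5, 11 with a mean of at least 10, 15 with DESeq2, 12 with edgeR and 0 to 0 without any 1 library. Leaving out a library, the log2 difference between spironolactone and vehicle ran from -0.0462 to 0.0225 for *Tsc22d1* (above 0 without the first spironolactone library) and from -0.42 to 0.58 for *Fam107a* (below 0 without the second), and that between sample numbers from -0.0066 to 0.0299 for *Fkbp4* (below 0 without the first aldosterone library) and from -0.33 to 0.42 for *Fam107a*, which was 0.21 with edgeR. The cause was not tested. Leaving out libraries for the ratios of paralogs was chosen after the values were seen, and no ratio changed direction. At this depth, *Zbtb16* and *Fam107a* had too few reads without aldosterone for small differences to be seen.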
